A study of Homo sapiens with 2 samples.

Results

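This account covers PURPL and the regulators and transcriptional targets of the tumour suppressor p53 in human liver cancer cells. The members were chosen by symbol from textbook lists of p53 genes. Of 44 symbols, 43 had a row among the 57820 genes of the tables, and TRIM22P1 was not analysed here. Some members are listed under older symbols: PURPL as LINC01021, TIGAR as C12orf5, SUSD6 as KIAA0247 and COP1 as RFWD2. They comprised 41 protein-coding genes and 2 long noncoding RNAs, spread over 17 chromosomes. The expression of PURPL in SKHEP1 and HepG2, both labelled wild type and kept in the same serum-supplemented medium, was a stated interest of the study. SKHEP1 is a line from a liver adenocarcinoma whose cells are labelled endothelial, and HepG2 is labelled hepatocellular carcinoma. The study's PURPL knockdown lines and long-read data were not analysed here. Each line gave 1 stranded poly(A) RNA-seq library, so differences between them have no replicate check and were not tested.

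The SKHEP1 library held 19940557 expected counts (RSEM's estimated reads per gene) and the HepG2 library 22477757. All 10 hepatocyte markers examined reached 10 counts in HepG2, whereas 8 of the 10 had 0 counts in SKHEP1. The exceptions were SERPINA1 (1817 counts in SKHEP1, 140809 in HepG2) and CPS1 (84 counts in SKHEP1, 1857 in HepG2). Of 12 endothelial markers, 5 reached 10 counts in SKHEP1 and 4 in HepG2, and their summed level was 78.4 TPM (transcript abundance scaled for length and depth) in SKHEP1 and 7.96 TPM in HepG2. KDR, ERG, CLDN5 and EMCN were at 0 counts in both lines, and CDH5 was at 1 count in SKHEP1 and 5 in HepG2. ENG (1926 counts in SKHEP1, 18 in HepG2) and ROBO4 (343 counts in SKHEP1, 4 in HepG2) were higher in SKHEP1. So was EGFL7 (178 counts in SKHEP1, 5 in HepG2). ESAM was higher in HepG2 (16 counts in SKHEP1, 144 in HepG2). TEK, TIE1 and VWF were low in both lines, at no more than 18 counts. These endothelial markers were therefore mixed, and the endothelial label of SKHEP1 was not tested. Of 6 mesenchymal markers, 5 reached 10 counts in SKHEP1 and 1 in HepG2, with summed levels of 6985 TPM and 6.40 TPM in those lines. VIM alone gave 6798 TPM of the SKHEP1 sum. COL1A1, COL3A1 and THY1 were also higher in SKHEP1, and COL1A2 had only 7 counts there. PDGFRB went the other way, at 2.60 TPM in SKHEP1 and 6.14 TPM in HepG2. The part of cell identity in the differences given here was not tested. In these bulk RNA samples, fewer cells that express a gene and less of its RNA per cell cannot be told apart.

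The p53 protein is a transcription factor held at low levels in unstressed cells, mainly by the ubiquitin ligase MDM2 together with its relative MDM4. DNA damage and other stresses release p53 from this control. It then binds paired decamers of a degenerate consensus near its targets, which stop the cell cycle, repair damage, adjust metabolism or lead to cell death. Several targets, MDM2 among them, feed back on p53. PURPL is a long noncoding RNA induced by p53 that has been reported to bind MYBBP1A, a nucleolar partner of p53, and to keep basal p53 low in colorectal cancer cells.

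Promoter sequences of the members are shown because a pair of p53 decamers next to each other sets PURPL apart from most genes. RefSeq windows (GRCh38.p14, from 250 bases before to 50 after a transcript start) were found for 37 of the 44 symbols, and some genes have several. The p53 decamer consensus was searched in them. It is its own reverse complement, so 1 search covers both strands. An exact decamer was present in the windows of 7 members (18.9% of the 37), against 8.06% of all 27305 genes with a window. Counted by window, the shares were 12.1% of 58 member windows and 6.63% of all 35116 windows. An exact pair with no base between its decamers was present in 2 members (5.41%), PURPL and PTCHD4, and in 6 genes in all (0.022%). The other 4 of these, EIF2AK3-AS1, LNCTAM34A, LOC105376065 and LOC124901737, were not analysed here. Members were listed as p53 genes, and such sites are part of how p53 targets are recognised, so these shares are a description. A match is likewise no evidence of binding. In the windows below, each on its gene's strand, capitals mark exact decamers. That of PURPL lies at chr5:27472042-27472341 on the plus strand, that of PTCHD4 at chr6:48111148-48111447 on the minus strand, and that of PLK2, shown as a member with a lone decamer, at chr5:58460037-58460336 on the minus strand.
PURPL: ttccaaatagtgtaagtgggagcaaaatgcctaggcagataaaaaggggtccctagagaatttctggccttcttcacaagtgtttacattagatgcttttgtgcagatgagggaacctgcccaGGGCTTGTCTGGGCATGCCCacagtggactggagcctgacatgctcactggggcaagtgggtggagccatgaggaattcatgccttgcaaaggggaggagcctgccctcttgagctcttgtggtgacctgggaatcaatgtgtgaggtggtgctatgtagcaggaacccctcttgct
PTCHD4: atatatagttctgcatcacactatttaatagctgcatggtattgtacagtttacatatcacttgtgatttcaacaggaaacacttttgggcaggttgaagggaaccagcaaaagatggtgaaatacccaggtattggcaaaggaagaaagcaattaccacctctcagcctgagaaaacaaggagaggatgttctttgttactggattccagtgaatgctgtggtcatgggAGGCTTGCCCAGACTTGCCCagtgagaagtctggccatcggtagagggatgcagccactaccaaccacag
PLK2: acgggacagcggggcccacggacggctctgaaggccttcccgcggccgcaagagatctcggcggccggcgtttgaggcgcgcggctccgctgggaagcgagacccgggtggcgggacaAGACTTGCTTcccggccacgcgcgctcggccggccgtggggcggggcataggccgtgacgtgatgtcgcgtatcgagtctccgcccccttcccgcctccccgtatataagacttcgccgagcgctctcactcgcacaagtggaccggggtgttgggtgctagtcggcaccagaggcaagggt

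The PURPL pair began 127 bases before the transcript start and the PTCHD4 pair 20 bases before it, so the PTCHD4 pair ran up to the start. A pair with at most 2 letters off the consensus was found in 5 members (13.5%), PURPL, PTCHD4, MDM2, TP73 and AEN, against 0.82% of all genes. The MDM2 pair lay in its downstream promoter (window chr12:68808767-68809066, plus strand), the one known to respond to p53, the TP73 pair in chr1:3690422-3690721 (plus strand) and the AEN pair in chr15:88621090-88621389 (plus strand). Below, capitals mark letters that fit and lower case those that do not.
PURPL pair: GGGCTTGTCTGGGCATGCCC
PTCHD4 pair: AGGCTTGCCCAGACTTGCCC
MDM2 pair: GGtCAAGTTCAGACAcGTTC
TP73 pair: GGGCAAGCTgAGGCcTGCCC
AEN pair: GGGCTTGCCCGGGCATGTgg

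**Figure D1:**
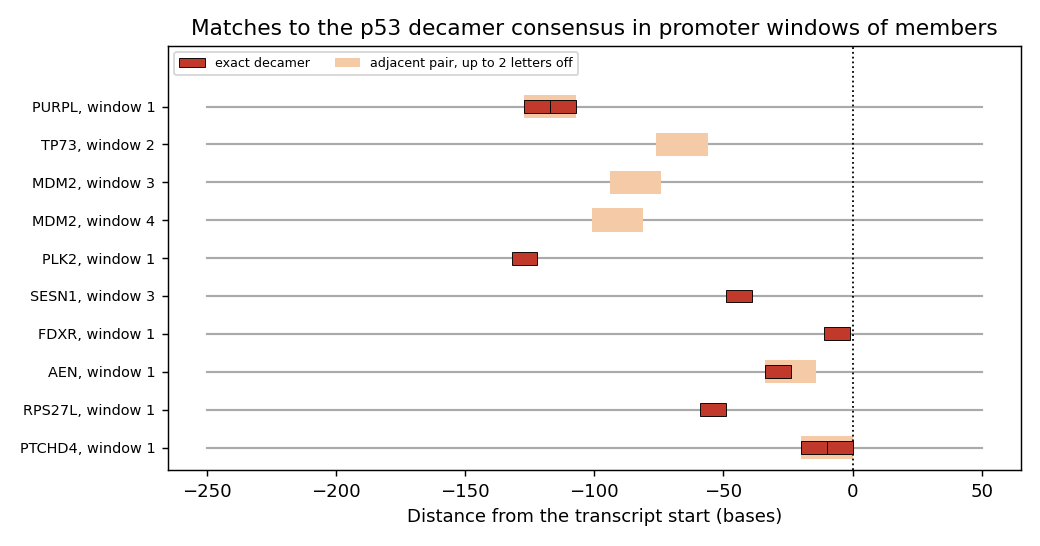
Position of matches to the p53 decamer consensus in RefSeq promoter windows of members, in bases from the transcript start (dotted line); only windows with a match are drawn, and numbers name a gene's windows. Narrow red boxes are exact decamers and wide pale boxes are adjacent pairs with at most 2 letters off; PURPL and PTCHD4 have 2 exact decamers side by side.

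By share, fewer p53-linked genes than genes in general were far higher in SKHEP1, and about as many in HepG2. No test was run on this. Within 2-fold lay 64.3% of the members compared, against 51.6% of all genes compared and 58.9% of those with 100 or more counts in either library, and 15 members were farther apart. Of the 43 members, 42 had at least 10 expected counts in either library and were compared; TP63 had 4 counts in SKHEP1 and 0 in HepG2. Ratios are SKHEP1 over HepG2, from counts scaled to TMM-adjusted library sizes (CPM), with exact 95% intervals that cover counting error only. Without molecular identifiers, reads copied by PCR do not count separate molecules. At least 4-fold higher in SKHEP1 were 2 members, PLK2 and PLCL2 (4.76%), against 16.5% of the 15436 genes compared. Higher by as much in HepG2 were 5 members, USP7, SESN1, SESN3, NINJ1 and PTCHD4 (11.9%), against 13.0% of all genes. At a 2-fold limit, 5 members were higher in SKHEP1, against 25.0% of all genes, and 10 in HepG2, against 23.4% of all genes. At 8-fold these counts were 2 in SKHEP1, against 11.5% of all genes, and 3 in HepG2, against 8.15% of all genes. The 35 members not past 4-fold (83.3%) compare with 70.5% of all genes and with 76.6% of those with 100 or more counts in either library.

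Neither direction prevailed among the members. Their ratio was above 1 for 20 and below 1 for 22, and the counting interval spanned 1 for 3 of the 42 (COP1, ACER2 and KITLG). The median log2 ratio was -0.17, against 0.03 over all genes compared. The median size of a difference, whatever its direction, was 1.55-fold among members and 1.93-fold among all genes. Members summed to 2602 TPM in SKHEP1 and 2226 TPM in HepG2, an order that rests on PLK2. Without PLK2, a sum taken after its values were seen, they came to 2092 TPM in SKHEP1 and 2216 TPM in HepG2.

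**Figure D2:**
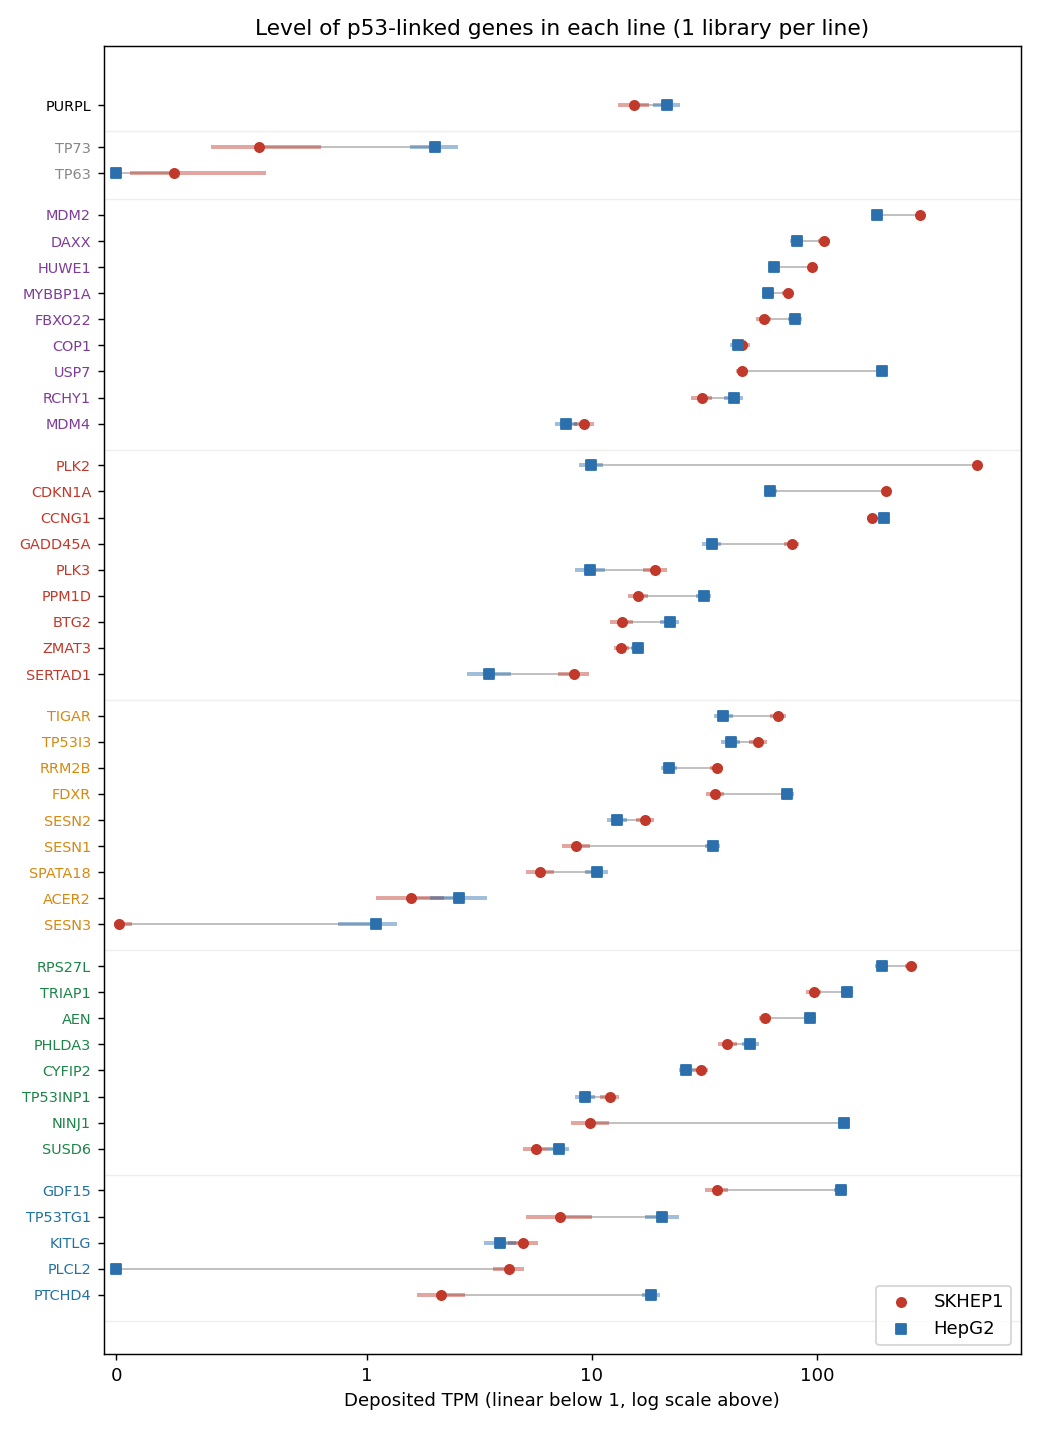
Deposited TPM of the 43 members in SKHEP1 (red circles) and HepG2 (blue squares), with coloured bars for 95% counting intervals, grouped by role; the axis is linear below 1 TPM and logarithmic above. Pairs for PLK2 (510 TPM in SKHEP1, 9.92 TPM in HepG2) and NINJ1 (9.83 and 131.99 TPM in those lines) lie far apart, and 35 of the 42 members compared lie within 4-fold.

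**Figure D3:**
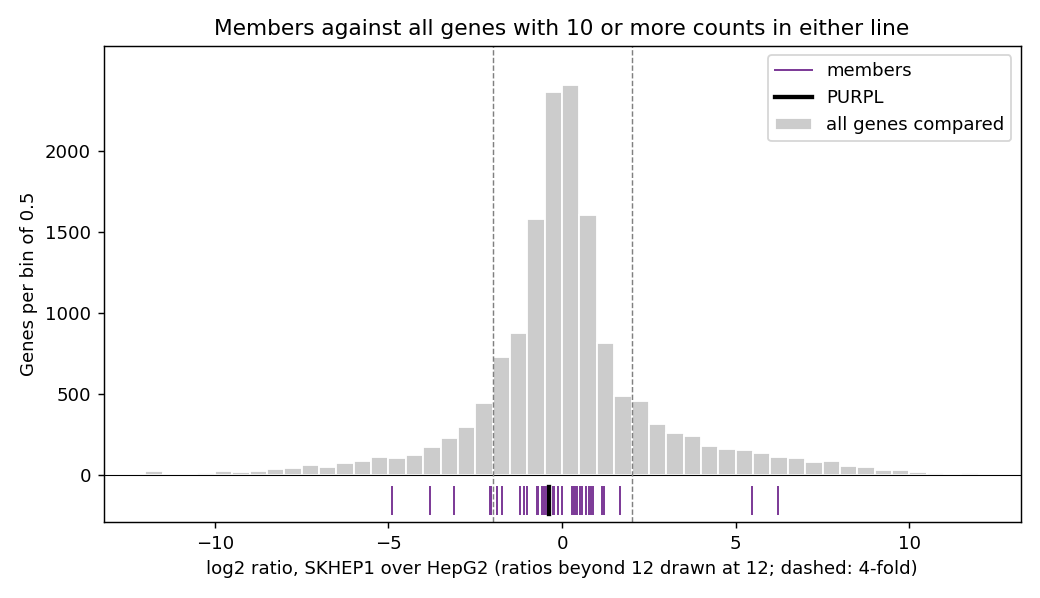
Number of genes per bin of log2 ratio, SKHEP1 over HepG2, for the 15436 genes compared (grey bars), with the 42 members as ticks below the axis and PURPL as the thick tick (counts under 3 set to a floor of 3); dashed lines mark 4-fold. The PURPL tick, at -0.39, lies among the bulk of genes, and 7 member ticks lie outside the dashed lines.

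PURPL was expressed at a moderate level for the group in both lines. It had 206 expected counts (15.3 TPM) in SKHEP1 and 296 expected counts (21.5 TPM) in HepG2, so it was lower in SKHEP1. The log2 ratio was -0.39, and counting error placed it between -0.65 and -0.13. By TPM, PURPL ranked 26 of the 43 members in SKHEP1 and 26 in HepG2. In SKHEP1 the counting interval of the TPM ratio to PURPL spanned 1 for 4 members, SESN2 (17.2 TPM), PPM1D (16.1 TPM), BTG2 (13.6 TPM) and ZMAT3 (13.5 TPM). PLK3, at 19.1 TPM, was 1.25 times as high as PURPL there (1.05 to 1.49). In HepG2 the interval spanned 1 for 3 members, BTG2 (22.1 TPM), RRM2B (22.03 TPM) and TP53TG1 (20.5 TPM), and PTCHD4, at 18.3 TPM, was 0.852 times as high as PURPL (0.744 to 0.978).

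The difference in PURPL between the lines was one of the smaller ones. A ratio nearer to 1 was seen for 11 members and one farther from 1 for 30, and 75.2% of all genes compared were farther apart. Its main reported partner, MYBBP1A, was at 74.2 TPM in SKHEP1 and 60.6 TPM in HepG2. CDKN1A, the target most often used to read p53 activity, stood 13.3 times above PURPL by TPM in SKHEP1 and 2.89 times above it in HepG2. MDM2 stood 18.6 times above PURPL in SKHEP1 and 8.61 times above it in HepG2.

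The p53 family members TP63 and TP73, transcription factors with the same DNA-binding fold, were low. TP73 had 31 counts (0.57 TPM) in SKHEP1 and 79 counts (2.01 TPM) in HepG2, and was 2.32-fold higher in HepG2 (interval 1.51 to 3.64). TP63, a regulator of stratified epithelia, had 0.23 TPM in SKHEP1 and was listed at 0 in HepG2, where 0 counts allow up to 0.135 CPM. At these counts a difference in TP63 was not detectable.

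The regulators of p53 stability, 9 genes, were all expressed in both lines and 8 of the 9 lay within 2-fold, against 51.6% of all genes compared. MDM2, the main ubiquitin ligase of p53, was at 286 TPM in SKHEP1 and 184.9 TPM in HepG2, and 1.33-fold higher in SKHEP1 by counts (1.29 to 1.37). MDM4, which lacks strong ligase activity of its own and blocks the p53 activation domain, was at 9.24 TPM in SKHEP1 and 7.67 TPM in HepG2, a 1.42-fold difference by counts (1.25 to 1.61). MDM2 was therefore 30.9 times as high as MDM4 in SKHEP1 and 24.1 times in HepG2. The large ligase HUWE1 had 11011 counts in SKHEP1 and 7486 counts in HepG2, a ratio of 1.61 (1.57 to 1.66).

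USP7 removes ubiquitin from MDM2 and p53, and it was the one regulator past 4-fold. It had 2385 counts in SKHEP1 and 10764 counts in HepG2, and was 4.11-fold higher in HepG2 (3.93 to 4.30). The intervals of USP7 and SESN1 both reached below 4-fold, and for USP7 upper-quartile scaling gave a log2 ratio of -1.98. USP7 was at 46.3 TPM in SKHEP1 and 193.9 TPM in HepG2, a level 0.162 times that of MDM2 in SKHEP1 and 1.05 times that of MDM2 in HepG2. DAXX, a histone chaperone that bridges USP7 and MDM2, was at 107 TPM in SKHEP1 and 81.0 TPM in HepG2.

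Other ligases and their subunits were closer between the lines than USP7. COP1 had 986 counts in SKHEP1 and 1082 counts in HepG2, a ratio of 1.00 (0.917 to 1.09) whose side of 1 changed with DESeq2 size factors. RCHY1, or Pirh2, had 518 counts in SKHEP1 and 676 counts in HepG2. FBXO22, a substrate receptor of a ubiquitin ligase and itself a p53 target, was 1.5-fold higher in HepG2 (1.39 to 1.62). The median log2 ratio of the 9 regulators was 0.37.

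**Figure D4:**
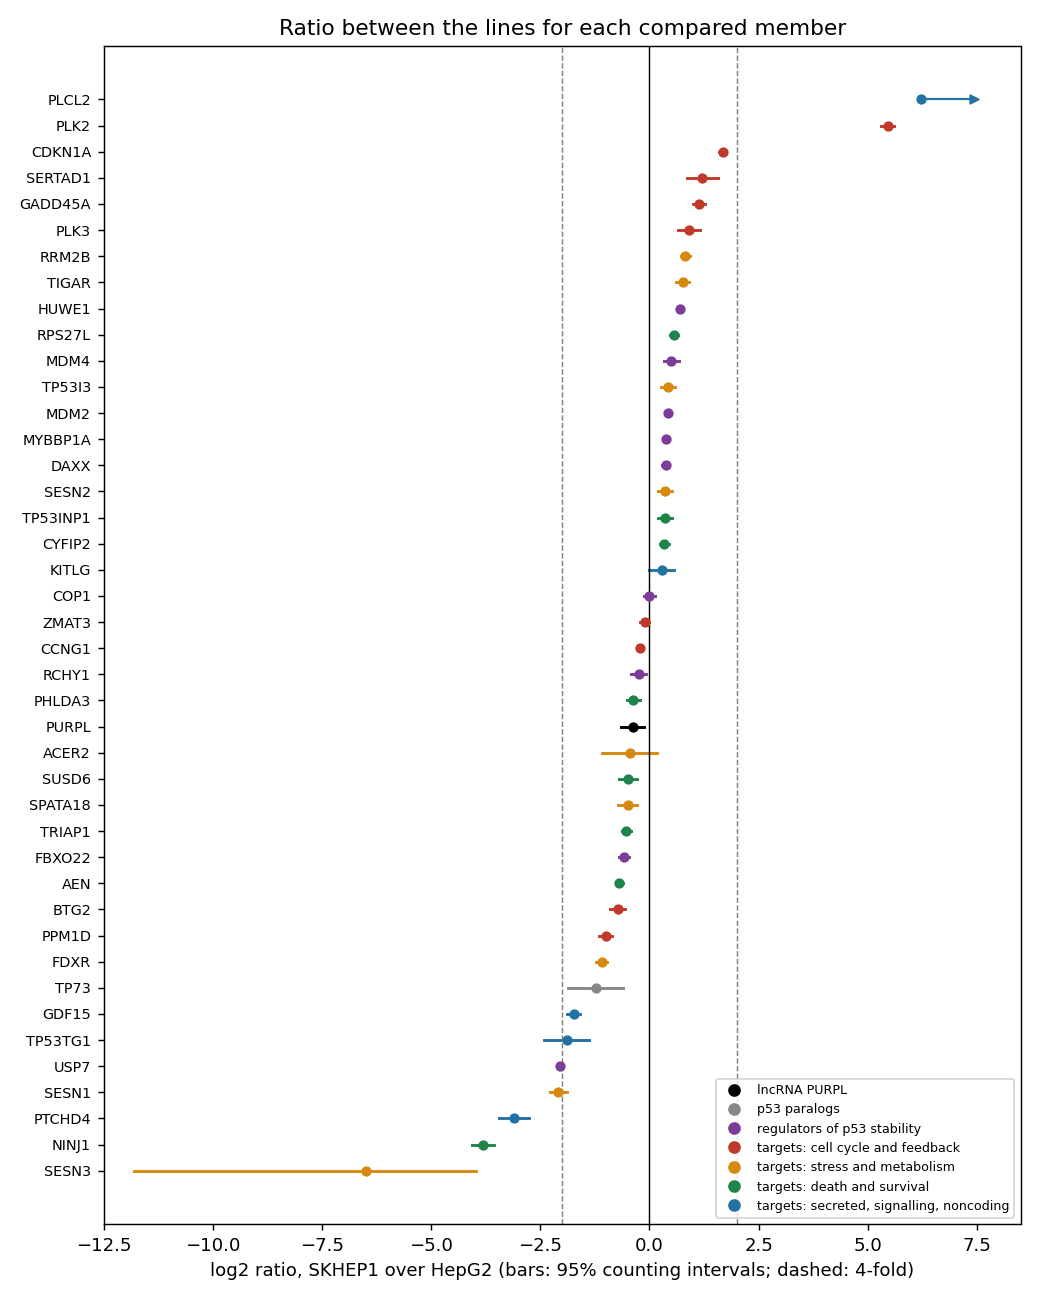
log2 ratio, SKHEP1 over HepG2, of the 42 members compared, ordered by size and coloured by role, with 95% counting intervals as bars and dashed lines at 4-fold; the arrow marks PLCL2, whose value is a lower bound because HepG2 had 0 counts. PLK2 (5.46) and PLCL2 lie far to the right, and SESN3, drawn from its single count in SKHEP1, far to the left.

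Among 9 targets that act on the cell cycle or feed back on p53, PLK2 differed most. This polo-like kinase had 15614 counts (510 TPM) in SKHEP1 and 390 counts (9.92 TPM) in HepG2, a ratio of 44 (39.8 to 48.7). PLK2 was the highest member by TPM in SKHEP1 and ranked 32 in HepG2. Its relative PLK3 had 372 counts in SKHEP1 and 219 counts in HepG2, a ratio of 1.86 (1.57 to 2.21). By TPM, PLK2 was 26.7 times as high as PLK3 in SKHEP1 and 1.01 times in HepG2, so the kinases were level in HepG2 and far apart in SKHEP1.

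CDKN1A encodes p21, the cyclin-dependent kinase inhibitor through which p53 halts the cycle. It had 5126 counts (203 TPM) in SKHEP1 and 1760 counts (62.1 TPM) in HepG2, a ratio of 3.20 (3.03 to 3.38). GADD45A, a growth arrest and stress sensor gene, was 2.2-fold higher in SKHEP1 (2.00 to 2.42). SERTAD1, a small protein that binds the kinase CDK4, had 204 counts in SKHEP1 and 97 counts in HepG2, a ratio of 2.31 (1.80 to 2.97). CDKN1A, GADD45A and SERTAD1 were thus higher in SKHEP1, but several others of the group were not.

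PPM1D, or WIP1, a phosphatase that dampens p53 signalling, was 2.01-fold higher in HepG2 (1.82 to 2.22), with 573 counts in SKHEP1 and 1264 counts in HepG2. BTG2, an antiproliferative factor, was 1.66-fold higher in HepG2 (1.47 to 1.87). CCNG1, or cyclin G1, which directs a phosphatase to MDM2, was abundant in both lines, at 175.9 TPM in SKHEP1 and 198.8 TPM in HepG2. CCNG1 was the highest member by TPM in HepG2 and ranked 5 in SKHEP1. ZMAT3, an RNA-binding zinc finger protein, had 1310 counts in SKHEP1 and 1552 counts in HepG2, a log2 ratio of -0.11. The median log2 ratio of the group was 0.90.

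Listed as targets in stress defence, metabolism and DNA synthesis were 9 members. They included the 3 sestrins, which restrain the growth kinase complex mTORC1, and these differed in makeup between the lines. SESN1 had 262 counts in SKHEP1 and 1222 counts in HepG2, and was 4.25-fold higher in HepG2 (3.71 to 4.87). SESN2, a leucine sensor, had 715 counts in SKHEP1 and 611 counts in HepG2, a ratio of 1.28 (1.15 to 1.43). SESN3 had 1 count in SKHEP1 and 99 counts in HepG2, which made it 90.2-fold higher in HepG2 with a wide interval of 15.8 to 3597. With SKHEP1 set to a floor of 3 counts, as for its call, SESN3 was 30.1-fold higher in HepG2. Together the sestrins were at 25.8 TPM in SKHEP1 and 48.5 TPM in HepG2. SESN2 made up 66.9% of that sum in SKHEP1 and 26.8% in HepG2, while SESN1 made up 33.0% in SKHEP1 and 71.0% in HepG2.

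The enzymes of this group stayed within 4-fold. FDXR, the ferredoxin reductase of mitochondria, was 2.13-fold higher in HepG2 (1.95 to 2.32), with 744 counts in SKHEP1 and 1739 counts in HepG2. RRM2B, the p53-induced subunit of ribonucleotide reductase, was 1.77-fold higher in SKHEP1 (1.65 to 1.91). TIGAR, which lowers fructose-2,6-bisphosphate and thereby glycolysis, had 995 counts in SKHEP1 and 645 counts in HepG2, a ratio of 1.69 (1.53 to 1.87). TP53I3, a quinone oxidoreductase, had a ratio of 1.35 (1.21 to 1.5). SPATA18, or Mieap, a factor in mitochondrial quality control, had 274 counts in SKHEP1 and 425 counts in HepG2. The ceramidase gene ACER2 was low, with 38 counts in SKHEP1 and 57 counts in HepG2.

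Of 8 targets in cell death and survival, 7 lay within 2-fold, as did 51.6% of all genes compared, and NINJ1 was the exception. NINJ1, which mediates rupture of the plasma membrane in dying cells, had 136 counts (9.83 TPM) in SKHEP1 and 2086 counts (131.99 TPM) in HepG2, and was 14.0-fold higher in HepG2 (11.7 to 16.7). It ranked 30 of the members by TPM in SKHEP1 and 6 in HepG2. AEN, a nuclease of apoptosis, was 1.61-fold higher in HepG2 (1.53 to 1.70), and TRIAP1, a survival factor of mitochondria, 1.45-fold (1.35 to 1.56). PHLDA3, an inhibitor of the kinase AKT, had 680 counts in SKHEP1 and 963 counts in HepG2.

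RPS27L, a ribosomal protein paralog, ranked 3 by TPM in both lines and was 1.48-fold higher in SKHEP1 (1.39 to 1.57). TP53INP1, which promotes autophagy and cell death, had 695 counts in SKHEP1 and 596 counts in HepG2. CYFIP2, a subunit of the actin-regulating WAVE complex, had 1430 counts in SKHEP1 and 1237 counts in HepG2. SUSD6, a membrane protein, had 331 counts in SKHEP1 and 511 counts in HepG2. The median log2 ratio of these 8 genes was -0.43.

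The 5 targets with secreted, signalling or noncoding products varied most. PLCL2, a phospholipase C-like protein without catalytic activity, had 205 counts (4.27 TPM) in SKHEP1 and 0 counts in HepG2. Against a floor of 3 counts per library it was 75.0-fold higher in SKHEP1, and its counting interval began at 60.5-fold. PTCHD4, a patched-domain protein, had 80 counts (2.15 TPM) in SKHEP1 and 755 counts (18.3 TPM) in HepG2, and was 8.60-fold higher in HepG2 (6.82 to 11). GDF15, a secreted stress cytokine, had 455 counts in SKHEP1 and 1663 counts in HepG2, a 3.33-fold higher level in HepG2 (3.0 to 3.70).

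GDF15 and CDKN1A, both widely used as readouts of p53 activity, ranked in opposite order. GDF15 stood at 0.176 times the TPM of CDKN1A in SKHEP1 and at 2.05 times in HepG2. TP53TG1, a long noncoding RNA, had 42 counts in SKHEP1 and 170 counts in HepG2, and was 3.69-fold higher in HepG2 (2.62 to 5.30). KITLG, the ligand of the receptor KIT, had 221 counts in SKHEP1 and 200 counts in HepG2, a ratio of 1.21 (0.997 to 1.48).

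The 7 members with an exact p53 decamer in a promoter window did not share a direction. PLK2 and RPS27L were higher in SKHEP1, and PURPL, SESN1, FDXR, AEN and PTCHD4 in HepG2. Their log2 ratios ran from -3.10 for PTCHD4 to 5.46 for PLK2. PURPL and PTCHD4, the members with an exact pair, were 1.31-fold (1.09 to 1.57) and 8.60-fold (6.82 to 11) higher in HepG2.

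Isoform-weighted length, the mean length of a gene's transcripts weighted by RSEM's estimate of their shares, gave a readout besides the level. It is given here without an error. Of 37 members with at least 50 counts in both libraries, 7 were at least 10% longer in SKHEP1, against 11.8% of the 10060 such genes. In HepG2, 2 members were longer by as much, against 10.5% of these genes, while 28 members differed by less. Members with 1 annotated transcript, SESN2 and SERTAD1, cannot differ on this measure.

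PURPL, with 6 transcripts in the tables, averaged 1250 bases in SKHEP1 and 1150 bases in HepG2, an 8.70% difference that stayed under the 10% limit. SPATA18 differed most, at 3834 bases in SKHEP1 and 2997 bases in HepG2. MDM4 averaged 5117 bases in SKHEP1 and 4239 bases in HepG2, 20.7% longer in SKHEP1. MDM2, with 37 listed transcripts, went the other way, at 2851 bases in SKHEP1 and 3176 bases in HepG2. The remaining genes past the limit were RCHY1, HUWE1, ZMAT3, CYFIP2 and RRM2B, longer in SKHEP1, and PLK2, at 2597 bases in SKHEP1 and 2917 bases in HepG2. Levels by TPM carry these lengths, so the log2 ratio of MDM2 was 0.41 by counts and 0.63 by TPM.

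**Figure D5:**
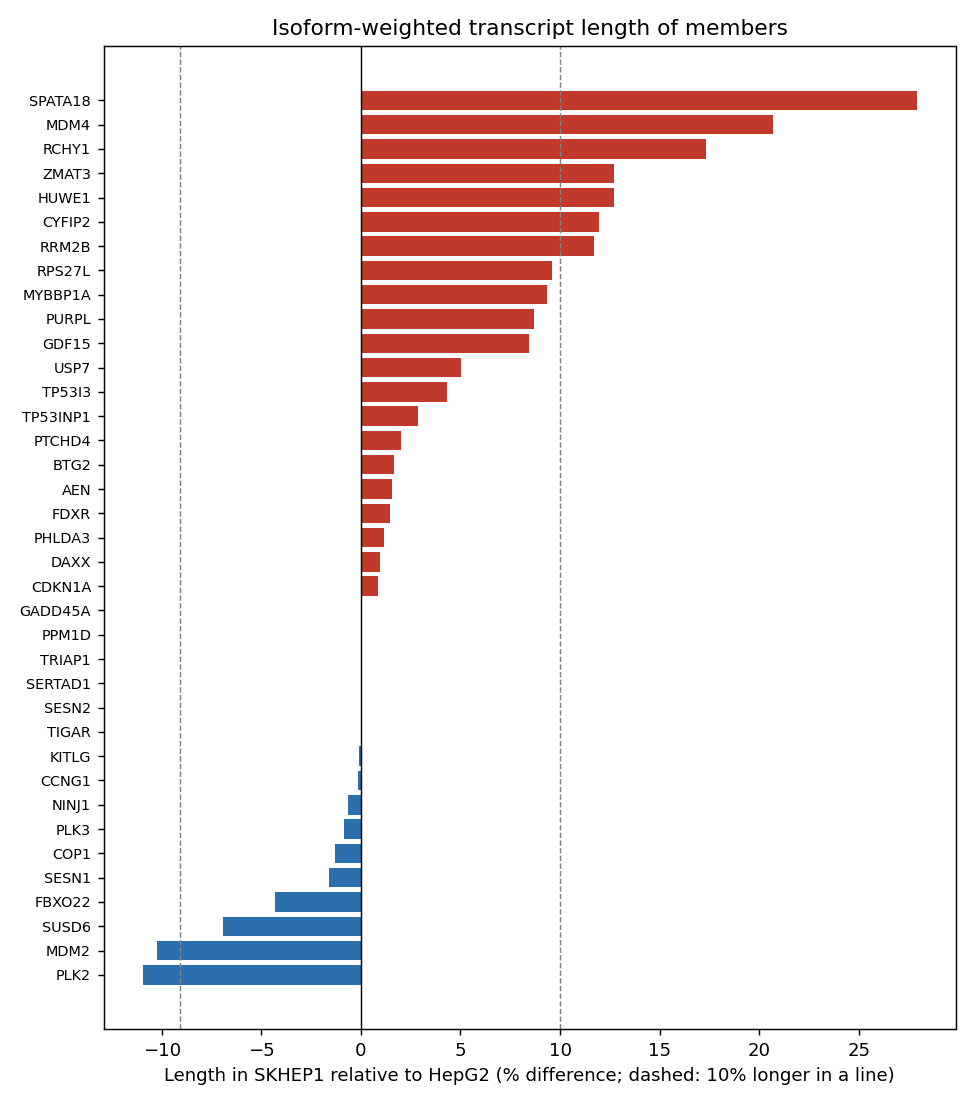
Percent difference in isoform-weighted length, SKHEP1 relative to HepG2, for the 37 members with at least 50 counts in both libraries; red bars are longer in SKHEP1, blue bars longer in HepG2, and dashed lines mark 10% longer in either line. SPATA18, MDM4 and RCHY1 are the longest bars in the SKHEP1 direction, and PLK2 and MDM2 pass the line in the HepG2 direction.

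Of 64 further genes of the pathway, listed from textbook knowledge, 79.7% were within 4-fold. The share was 70.5% of all genes compared and 76.6% of those with 100 or more counts in either library. SKHEP1 was ahead by 4-fold or more for 9 (14.1%, against 16.5% of all genes) and HepG2 for 4 (6.25%, against 13.0% of all genes), and the median log2 ratio was 0.17. Among 18 other regulators, 1 was higher by as much in SKHEP1 (5.56%, against 16.5% of all genes) and 1 in HepG2 (5.56%, against 13.0%). SETD7, a lysine methyltransferase that acts on p53, had 1387 counts in SKHEP1 and 12 counts in HepG2, a ratio of 127 (72.4 to 246). The other was CDKN2A, at 0 counts in SKHEP1 and 19 counts in HepG2, named after its value was seen. The ligase UBE3A (log2 ratio -0.03) and the checkpoint kinase CHEK2 (-0.16) were closest to equal.

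Of 10 other apoptosis targets, 90.0% lay within 4-fold, against 70.5% of all genes compared. Only PMAIP1, or NOXA, a BH3-only activator of cell death, was past 4-fold. It had 250 counts in SKHEP1 and 49 counts in HepG2, a ratio of 5.60 (4.11 to 7.77). The pore-forming protein gene BAX had 2169 counts in SKHEP1 and 2331 counts in HepG2, a ratio of 1.02 (0.963 to 1.08), and the death receptor gene TNFRSF10B a ratio of 0.959 (0.92 to 0.999). The 5 DNA repair targets all lay within 4-fold, as did 70.5% of all genes compared. Among them XPC, a lesion sensor, was at a ratio of 1.09 (0.995 to 1.18) and the helicase gene ASCC3 at 0.942 (0.891 to 0.996).

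The 30 targets with further roles included 7 past 4-fold in favour of SKHEP1 (23.3%, against 16.5% of all genes) and 3 in favour of HepG2 (10.0%, against 13.0%). CD82, a tetraspanin, had 1620 counts in SKHEP1 and 0 counts in HepG2. Against the floor of 3 counts per library it was 593-fold higher in SKHEP1, with a counting interval from 482-fold. TRIM22, an antiviral ligase induced by interferon and p53, had 687 counts in SKHEP1 and 31 counts in HepG2, a ratio of 24.3 (17.0 to 36.1). GLS2, the mitochondrial glutaminase of liver, had 0 counts in SKHEP1 and 292 counts in HepG2. Against the same floor it was 88.7-fold higher in HepG2, with a counting interval from 71.6-fold. TGFA, a ligand of the EGF receptor, was 12.3-fold higher in HepG2 (9.07 to 17.0). SCO2, a cytochrome oxidase assembly factor, had 320 counts in SKHEP1 and 351 counts in HepG2, and the ligase gene RNF19B had 501 counts in SKHEP1 and 559 counts in HepG2. Among noncoding RNAs, NEAT1, which builds paraspeckles, had 4572 counts in SKHEP1 and 2034 counts in HepG2, a ratio of 2.47 (2.34 to 2.60), TUG1 had a ratio of 0.981 (0.934 to 1.03), and MEG3 had 0 counts in both libraries.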

How the data were processed

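RNA-seq gene tables of SKHEP1 and HepG2, 1 library per line grouped by the cell line labels, were used. The submitters' processing notes name hg19 with cutadapt, STAR, RSEM and DESeq2. Their versions, the annotation and the strand setting were not given in the sources used here. Overlapping or antisense genes therefore have uncertain values. The deposited tables hold, per the file headers, expected counts, TPM, FPKM and isoform-weighted lengths. Levels of different genes were compared as the deposited TPM only.

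Expected counts were rounded and scaled with TMM (edgeR 4.0.16, R 4.3.3), with factors of 1.01 for SKHEP1 and 0.987 for HepG2. Genes with at least 10 expected counts in either library were compared by a limit of 4-fold, with no test. Intervals at 95% are exact conditional Clopper-Pearson. Counts under 3 were set to a floor of 3 for calls and medians. SESN3, at 1 count, is given by its raw ratio and against that floor. Chromosomes and gene types came from GENCODE 29 by identifier. Intervals were also run on simulated Poisson counts, the model they assume, so that run does not bear on other sources of error. Python 3.11.15, numpy 2.4.6, pandas 2.3.3, scipy 1.17.1, matplotlib 3.10.9 and DESeq2 1.42.0 were also used.

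Every member with 10 counts is given with values. Of the further lists, up to 4 genes past 4-fold with at least 100 counts and the 2 closest to equal were named per list; CDKN2A and MEG3 fall outside this rule. Members and lists were chosen with earlier results of these data known. LINC-PINT, TP53COR1 and PANDAR were not analysed here. Alternatives were other scalings, deposited TPM and FPKM, count minimums, fold limits and the interval bound.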

Additional observations from a re-analysis of the deposited data

How the results depend on the processing

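With 1 library per line, no left-out replicate could be run, and no paired analysis was possible because each line has a single library. PURPL kept its direction under 6 alternatives, with log2 ratios from -0.50 to -0.33. Of 205 further ratios over the other 41 members compared and 5 scalings or units, 28 moved beyond the counting interval and 0 of those past 4-fold changed sign. No scaling moved the median of all genes by 0.1 on the log2 scale. With a 2-fold limit, 5 members were higher in SKHEP1 and 10 in HepG2, against 25.0% and 23.4% of all genes. At 8-fold, or with the interval bound nearest 1 at 4-fold, 3 members were higher in HepG2. The median over members stayed between -0.22 and -0.10. Without length, PURPL ranked 34 in SKHEP1 and 34 in HepG2. With deposited TPM or FPKM values, 2 further pathway genes rather than 4 were higher in HepG2, and 7 rather than 9 in SKHEP1, as with DESeq2 size factors; a minimum of 50 counts left 3 in HepG2. Few counts limit TP63, SESN3, PLCL2, ACER2 and TP73. The order of the summed TPM turned without PLK2, with SKHEP1 minus HepG2 at 376 TPM with it and -124 TPM without it. The cause was not tested.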
